A study of Mus musculus with 12 samples.

Results

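Expression of 8 genes of class-switch DNA repair was read in mouse B cells on 12 Agilent 1-colour arrays: Ung, Msh6, Apex1, Apex2, Trp53bp1, Lig4, Xrcc4 and Prkdc. They were chosen by name: every probe whose gene name is one of the 8 was taken, in all 4 groups, whatever its values. That gave 9 probes of 55681 and 8 genes of 34650 gene names. All 8 passed the filter on dim probes and belong to the 16497 genes tested, and each of the 9 probes was well above background on all 12 arrays.

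Splenic B cells of BALB/c mice (female, 9 weeks old) had been isolated by negative selection, and the 4 groups of 3 arrays were STAT6 knockout with IL-4, STAT6 knockout without it, wild type with IL-4 and wild type without it. Cells of every group, the controls included, were activated for 4 days by lipopolysaccharide at 2 µg/ml together with anti-CD40 at 10 µg/ml, and IL-4 was given at 25 ng/ml. STAT6 is the transcription factor that the IL-4 receptor activates, and the comparison asks which responses to IL-4 need it. The labels speak of triplicates but do not say that each came from its own animal, so p-values measure the spread between these samples, which may be technical.

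Between 40.7 and 44.0% of the 59305 non-control spots of an array exceeded background clearly, and arrays of a group correlated at 0.994 to 0.998. Levels are given as log2 of the processed signal minus the 75th percentile of the array, so 0 is the brightness of that percentile. The brightest Stat6 probe was 1.94 lower on this log2 scale in knockout cells than in wild-type cells, with IL-4 (limma, adjusted p = 1.84e-08) and without it (adjusted p = 1.03e-06). All 6 B cell markers were well above background on every array. So were 4 of 5 T cell markers (Cd3e, Cd3d, Cd3g and Cd4, but Cd8a on none), and their summed level was 1.99 to 2.75 in knockout cells and 2.08 to 2.36 in wild-type cells, in multiples of the 75th percentile of the array. Of the NK cell genes Ncr1 and Klrb1c neither was above background on any array, of the granulocyte genes S100a8 was on 4, S100a9 on 1 and Ly6g on none, and of the erythroid genes Hbb-b1 was on 3 and Alas2 on none. The arrays lay on 2 slides, slide 1 with the 6 wild-type arrays and 2 knockout controls (1 and 2), slide 2 with every knockout IL-4 array and knockout control 3. The wild-type response to IL-4 was therefore measured within 1 slide. For knockout comparisons a model with slide as a block is added. In the knockout response, and so in the difference between responses, it sets knockout IL-4 arrays against knockout control 3 alone. Between genotypes without IL-4 it compares within slide 1. Between genotypes with IL-4, every knockout array lay on slide 2 and every wild-type array on slide 1. There the block adjusts only by the offset of knockout control 3 from knockout controls 1 and 2.

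Class switching replaces the constant region of an immunoglobulin heavy chain, and IL-4 directs activated mouse B cells towards classes that include IgE. Cytosines in the switch regions are deaminated to uracil, the uracil is removed or recognised as a mismatch, and the DNA is cut at the resulting abasic sites. The paired breaks are then protected from resection and joined, mostly by non-homologous end joining.

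In wild-type cells, IL-4 was accompanied by lower levels of 5 of the 8 genes: Lig4, Prkdc, Apex1, Apex2 and Ung. Ung was read only by a probe that is mostly a GT repeat, described below, so its calls here are those of that probe. 1 gene, Xrcc4, was higher by a small margin, and Msh6 and Trp53bp1 were not called. Among all genes tested in that comparison, 30.8% were called lower and 26.4% higher. In STAT6 knockout cells 1 of the 8 was lower (Apex2) and 1 higher (Trp53bp1, by its brighter probe), where 14.7% of all genes were called lower and 27.5% higher. The response itself differed between the genotypes for 4 genes, Apex1, Prkdc, Lig4 and Ung, each with the more positive response in knockout cells. Over all genes, 28.3% had a more positive response in knockout cells and 16.4% a more negative one. A gene was called at an adjusted p under 0.05 by limma, with Benjamini-Hochberg adjustment over all genes tested in the comparison.

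**Figure D1:**
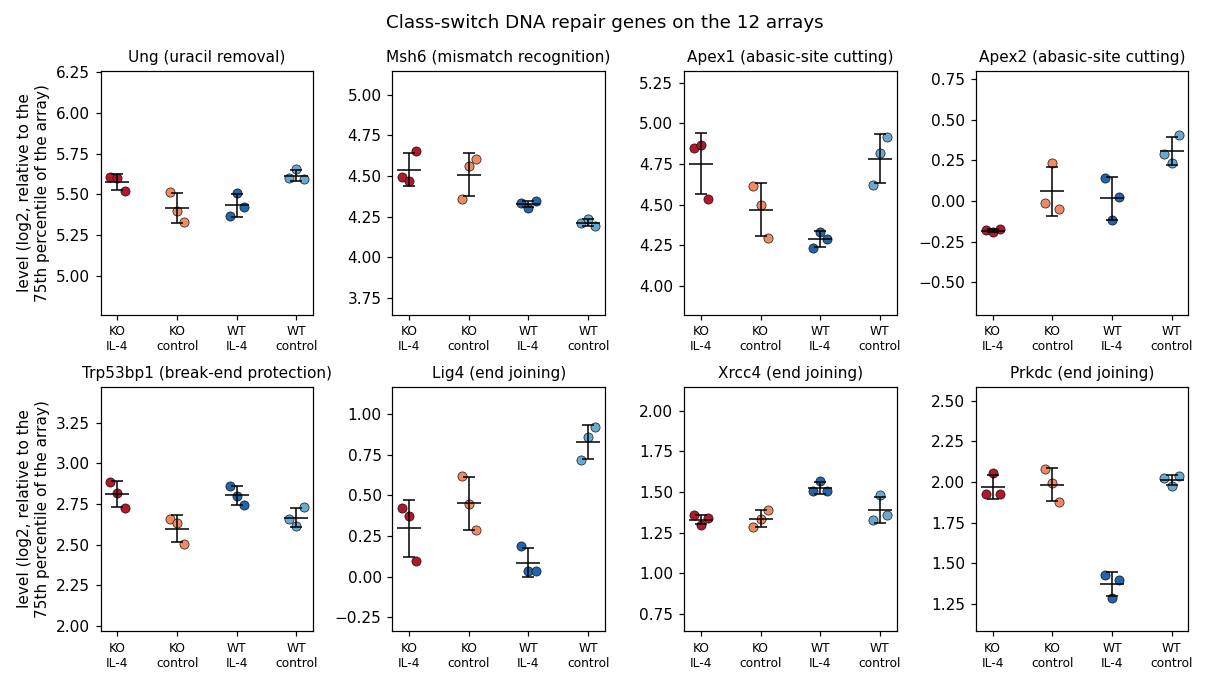
Log2 level of each of the 8 genes on each array, relative to the 75th percentile of that array, with knockout (KO) groups left of wild-type (WT) groups; points are arrays, long bars are group means and whiskers are SD (n = 3). All panels span 1.5 log2 units; the 3 wild-type IL-4 arrays lie below the other 9 for Prkdc, and the 3 wild-type controls lie above the other 9 for Lig4.

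Ung encodes uracil-DNA glycosylase, which removes the uracil. Its level was 5.61, 5.60 and 5.52 in knockout cells with IL-4, against 5.52, 5.40 and 5.33 in knockout controls. It was 5.37, 5.51 and 5.42 in wild-type cells with IL-4, against 5.60, 5.66 and 5.59 in wild-type controls. The groups did not overlap in either genotype, though in knockout cells by less than the rounding shown (5.5200 against 5.5172), and the direction was opposite. The difference between responses was 0.34 ± 0.08 (log2, ± SE; adjusted p = 0.0075). Ung fell by 0.18 ± 0.06 in wild-type cells (adjusted p = 0.0215) and was 0.16 ± 0.06 higher in knockout cells, which missed the threshold (adjusted p = 0.0506) and passed it with slide as a block (0.24, adjusted p = 0.0387). The wild-type call was lost without wild-type control 2 (adjusted p = 0.0734), wild-type IL-4 array 1 (0.0829) or wild-type IL-4 array 3 (0.0583), and with median scaling (0.2350) and no filter on dim probes (0.0870), so in 5 of 23 alternatives.

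The sequence of the Ung probe bears on these values. The probe was placed by the files at chr5:114588731-114588790 on the plus strand (mm9), and 34 of its 60 bases are a repeat of GT, shown here in capitals.
Ung probe: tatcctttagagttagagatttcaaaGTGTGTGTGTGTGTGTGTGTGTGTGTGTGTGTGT
A dinucleotide repeat of 12 bases or more occurs in 243 of the 55681 probes (0.436%). 10 other probes, none named Ung, hold a GT repeat at least as long as the 34 bases of the Ung probe, and all 10 were well above background on all 12 arrays. Their change with IL-4 was 0.07 to 0.17 in knockout cells (median 0.13), where that of the Ung probe was 0.16, and -0.25 to -0.07 in wild-type cells (median -0.17), where that of the Ung probe was -0.18. All 10 had the sign of the Ung probe in each of the 5 comparisons. Their levels over the 12 arrays averaged 5.47 to 7.28, and that of the Ung probe 5.51. Ranked by the distance of their centred values over the 12 arrays, 4 of the 5 nearest of 22928 other probes were among these 10. The comparison was chosen after the Ung values had been seen. These values do not tell Ung transcript apart from other transcripts that carry the repeat, and no other Ung probe is on the array, so the Ung calls are those of this probe.

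**Figure D2:**
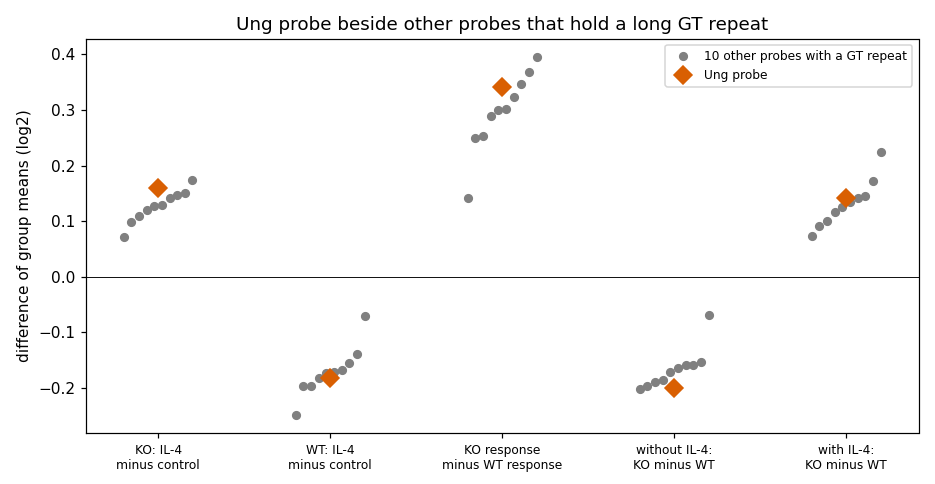
Difference of group means (log2) of the Ung probe (diamonds) and of 10 other probes with a GT repeat of at least 34 bases (circles, spread sideways by rank) in 5 comparisons. In each comparison all 10 lie on the same side of 0 as the Ung probe, and the Ung probe lies within their range.

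Msh6 encodes a subunit of the complex that recognises mismatched bases. It stood at 4.49, 4.47 and 4.65 in knockout cells with IL-4 and at 4.36, 4.56 and 4.60 in knockout controls, so these groups overlapped. In wild-type cells it stood at 4.34, 4.30 and 4.34 with IL-4, against 4.21, 4.24 and 4.19 in controls. All 6 knockout arrays were above all 6 wild-type arrays. The knockout excess was 0.21 ± 0.07 with IL-4 (adjusted p = 0.0280) and 0.29 ± 0.07 without it (adjusted p = 0.0302). With slide as a block neither was called, at 0.07 with IL-4 (adjusted p = 0.7055) and 0.24 within slide 1 without it (adjusted p = 0.1077). Leaving out knockout IL-4 array 3 or any wild-type IL-4 array also ended the first call (adjusted p 0.0575 to 0.0915), and leaving out knockout control 2 or 3 or any wild-type control ended the second (0.0737 to 0.1077). Each of these calls was lost in 9 of 23 alternatives in all. The IL-4 response was not called in either genotype, at 0.03 (95% interval -0.12 to 0.19) in knockout cells and 0.11 (-0.04 to 0.27) in wild-type cells.

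Apex1 encodes the main endonuclease that cuts DNA at abasic sites. Its probe, at chr14:51546483-51546542 on the plus strand (mm9), holds no dinucleotide repeat over 4 bases, and is shown as the base of one of the clearest differences between genotypes.
Apex1 probe: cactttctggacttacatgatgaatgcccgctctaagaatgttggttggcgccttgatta
Apex1 stood at 4.85, 4.87 and 4.54 in knockout cells with IL-4, against 4.62, 4.50 and 4.30 in knockout controls. It stood at 4.24, 4.34 and 4.29 in wild-type cells with IL-4, against 4.62, 4.82 and 4.92 in wild-type controls. The wild-type groups did not overlap and the knockout groups did. Apex1 fell by 0.50 ± 0.11 in wild-type cells with IL-4 (1.41-fold lower, adjusted p = 0.0033). In knockout cells it was 0.28 ± 0.11 higher, which was not called (adjusted p = 0.0678) and was called with slide as a block (0.46, adjusted p = 0.0391) and without knockout control 1 (0.36, 0.0401) or knockout IL-4 array 3 (0.39, 0.0141). The responses differed by 0.78 ± 0.16, or 1.72-fold (adjusted p = 0.0029), and this call held in all 22 alternative settings in which it was computed. With IL-4 present, Apex1 was 0.47 ± 0.11 higher in knockout than in wild-type cells (1.38-fold, adjusted p = 0.0057). These groups lay on different slides. With slide as a block the excess was 0.73, by an offset that rests on knockout control 3.

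Apex2 encodes the second abasic endonuclease. It stood at -0.18, -0.19 and -0.17 in knockout cells with IL-4, against -0.01, 0.23 and -0.05 in knockout controls. It stood at 0.14, -0.12 and 0.02 in wild-type cells with IL-4, against 0.29, 0.24 and 0.40 in wild-type controls. Each genotype had its lower values with IL-4 and no overlap. Apex2 fell by 0.24 ± 0.09 in knockout cells (adjusted p = 0.0462) and by 0.29 ± 0.09 in wild-type cells (adjusted p = 0.0142), and the difference between the responses was 0.05 with a 95% interval of -0.22 to 0.33. The knockout call was lost with slide as a block (-0.13, adjusted p = 0.4065), with median scaling (-0.09, 0.4651), without knockout control 2 (-0.15, 0.1673) and without any knockout IL-4 array, any wild-type control or wild-type IL-4 array 3 (0.0511 to 0.1052), in all in 13 of 23 alternatives. The wild-type call was lost without wild-type IL-4 array 2 (0.0572) or wild-type control 3 (0.0568).

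Trp53bp1 encodes 53BP1, which binds chromatin around breaks and limits resection of their ends. It is the only one of the 8 with more than 1 probe, and its 2 probes differ in brightness and in direction. The brighter lies at chr2:121024792-121024851 and the dimmer at chr2:121022706-121022765, both on the minus strand (mm9), and both are shown because the knockout results depend on which is read.
Trp53bp1 brighter probe: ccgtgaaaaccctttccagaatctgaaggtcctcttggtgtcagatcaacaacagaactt
Trp53bp1 dimmer probe: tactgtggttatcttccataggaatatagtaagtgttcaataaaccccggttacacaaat
The brighter probe stood at 2.89, 2.82 and 2.73 in knockout cells with IL-4, against 2.66, 2.63 and 2.50 in knockout controls. It stood at 2.86, 2.80 and 2.75 in wild-type cells with IL-4, against 2.66, 2.62 and 2.73 in wild-type controls. With IL-4 the values were higher without overlap in both genotypes. The rise was called in knockout cells (0.21 ± 0.06, adjusted p = 0.0200; 0.30 with slide as a block, adjusted p = 0.0188) and the wild-type difference was not (0.14 ± 0.06, adjusted p = 0.0831). The knockout call was lost without knockout IL-4 array 1 (adjusted p = 0.0753), knockout IL-4 array 2 (0.0539) or knockout control 3 (0.0716). It was also lost with quantile scaling (0.09, adjusted p = 0.2003), the deposited table (0.11, 0.1929), no filter (0.0829), only the compared arrays (0.0778) and the mean of both probes (0.9233), so in 8 of 23 alternatives. The responses differed by 0.07, with a 95% interval of -0.12 to 0.27.

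The dimmer Trp53bp1 probe read -3.39, -3.08 and -3.44 in knockout cells with IL-4, and -3.26, -2.79 and -3.15 in knockout controls. It read -2.57, -2.95 and -2.96 in wild-type cells with IL-4, and -2.67, -2.75 and -2.72 in wild-type controls. Its processed intensities were 29.2 to 57.3, where the 75th percentile of the arrays was 296 to 356. In a fit over all 22940 kept probes its IL-4 response in knockout cells was -0.24 ± 0.15 (adjusted p = 0.2276), against 0.21 ± 0.06 for the brighter probe. It was called lower in knockout than in wild-type cells with IL-4 (-0.48 ± 0.15, adjusted p = 0.0208), where the brighter probe differed by 0.01. With the mean of both probes the knockout response was -0.01, so no direction is given for the gene beyond that of each probe.

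Prkdc encodes the catalytic subunit of the DNA-dependent protein kinase, which Ku recruits to broken ends. BALB/c mice are known to carry a Prkdc allele of lowered activity, and no allele was read here. The Prkdc probe is printed on 10 spots of each array and its 60 bases span chr16:15839317-15841922 on the plus strand (mm9), a stretch of 2606 bases.
Prkdc probe: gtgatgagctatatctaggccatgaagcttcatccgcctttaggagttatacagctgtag
The means over its spots were 1.93, 2.05 and 1.92 in knockout cells with IL-4, and 2.08, 2.00 and 1.88 in knockout controls. They were 1.43, 1.29 and 1.39 in wild-type cells with IL-4, against 2.02, 1.98 and 2.04 in wild-type controls. The 3 wild-type IL-4 arrays were below the other 9, which overlapped one another. The SD between spots on 1 array was 0.03 to 0.06, and processed intensities before scaling were 869 to 915 in wild-type cells with IL-4 and 1220 to 1288 in wild-type controls. Prkdc fell by 0.64 ± 0.06 in wild-type cells (1.56-fold lower, adjusted p = 1.14e-05), while its knockout response was -0.01 with a 95% interval of -0.16 to 0.13. The responses differed by 0.63 ± 0.09 (1.54-fold, adjusted p = 3.34e-04; 0.73 with slide as a block, adjusted p = 4.26e-04). With IL-4, Prkdc was 0.60 ± 0.06 higher in knockout than in wild-type cells (1.51-fold, adjusted p = 2.51e-05). Its wild-type call and its genotype call with IL-4 held in all 23 alternatives.

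Lig4 encodes DNA ligase IV, which seals the joined ends. Its probe lies at chr8:9970290-9970349 on the minus strand (mm9) and is shown because Lig4 had the widest span of group means among the 8.
Lig4 probe: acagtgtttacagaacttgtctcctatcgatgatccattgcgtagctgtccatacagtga
Lig4 stood at 0.42, 0.37 and 0.10 in knockout cells with IL-4, and at 0.62, 0.45 and 0.29 in knockout controls. It stood at 0.19, 0.04 and 0.03 in wild-type cells with IL-4, against 0.71, 0.86 and 0.92 in wild-type controls. The wild-type groups were far apart, while the knockout groups overlapped and had means between them. Lig4 fell by 0.74 ± 0.11 in wild-type cells (1.67-fold lower, adjusted p = 1.62e-04). In knockout cells its change was -0.15 (95% interval -0.39 to 0.08; 0.01 with slide as a block), and the responses differed by 0.59 ± 0.15 (1.51-fold, adjusted p = 0.0097). Without IL-4, Lig4 was 0.38 ± 0.11 lower in knockout than in wild-type cells (adjusted p = 0.0469). That genotype call was lost within slide 1 (-0.30, adjusted p = 0.1595) and without any of 9 arrays (0.0590 to 0.1595), all but knockout control 1 and knockout IL-4 arrays 1 and 3, and in all in 15 of 23 alternatives.

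Xrcc4 encodes the partner protein that binds and stabilises DNA ligase IV. It stood at 1.36, 1.30 and 1.34 in knockout cells with IL-4 and at 1.29, 1.33 and 1.39 in knockout controls, with overlap. It stood at 1.50, 1.57 and 1.50 in wild-type cells with IL-4, against 1.33, 1.48 and 1.36 in wild-type controls. The wild-type IL-4 arrays were above the other 9. The wild-type rise was 0.13 ± 0.05 (1.10-fold, adjusted p = 0.0481), and this call was lost in 14 of 23 alternatives, among them the omission of any array but wild-type control 2 and knockout controls 1 and 3 (adjusted p 0.0526 to 0.1573). With IL-4, Xrcc4 was 0.19 ± 0.05 lower in knockout than in wild-type cells (adjusted p = 0.0102), a call lost in 2 of 23 alternatives, median scaling and no filter on dim probes (adjusted p = 0.0598 and 0.0542). Its responses differed by -0.14 (95% interval -0.30 to 0.02), which was not called.

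**Figure D3:**
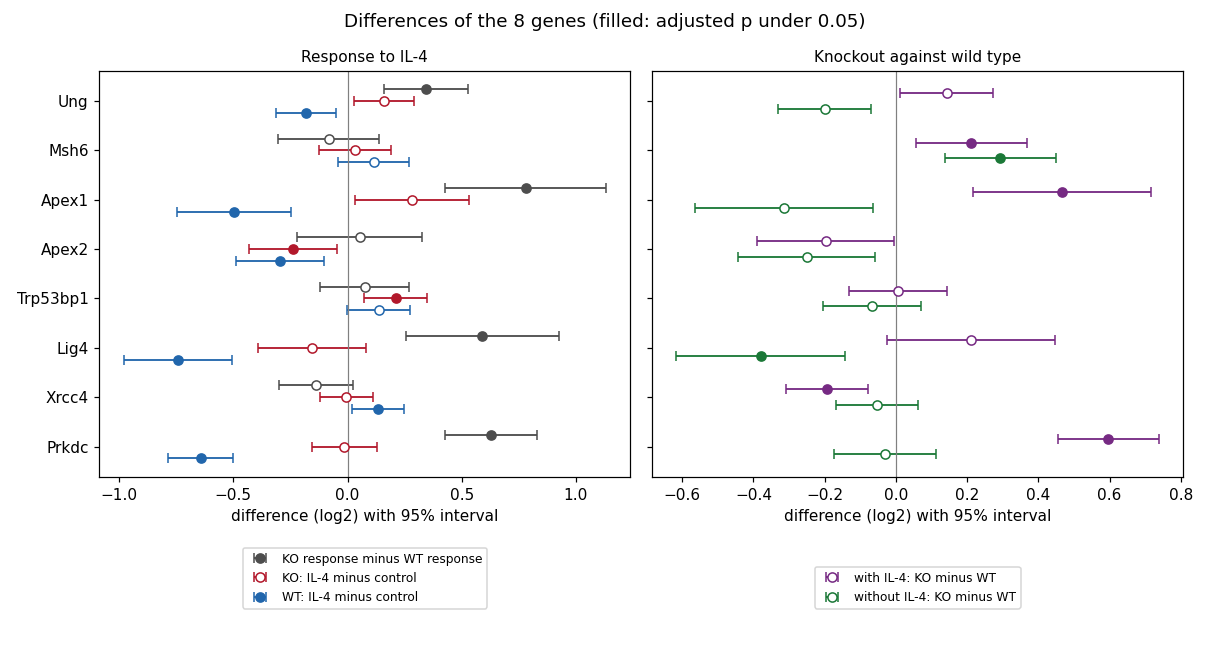
Log2 differences of the 8 genes with 95% intervals from limma; the left panel gives the difference between responses and the IL-4 response in knockout (KO) and wild-type (WT) cells, and the right panel knockout minus wild type with and without IL-4. Filled points have an adjusted p under 0.05; in the left panel the grey points of Ung, Apex1, Lig4 and Prkdc are filled, at 0.34, 0.78, 0.59 and 0.63.

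Set against wild type with IL-4 present, knockout cells had 3 of the 8 genes higher (Prkdc, Apex1 and Msh6) and 1 lower (Xrcc4), where 29.8% of all genes were called higher and 21.3% lower. Without IL-4, 1 was higher (Msh6) and 1 lower (Lig4), where 4.73% of all genes were called higher and 6.96% lower. The median of the 8 was 0.18 with IL-4 and -0.13 without it, beside medians of 0.06 and -0.04 over all genes. The medians of the 8 for the IL-4 response were 0.01 in knockout cells and -0.24 in wild-type cells, beside 0.05 and -0.04 over all genes. These comparisons share groups, so their values are given side by side only.

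The order of the 4 group means differed between genes, with Trp53bp1 read here by its brighter probe and Ung by its repeat probe. The dimmer Trp53bp1 probe averaged highest in wild-type controls and lowest in knockout cells with IL-4. Wild-type controls had the highest mean for 5 genes (Ung, Apex1, Apex2, Lig4 and Prkdc), knockout cells with IL-4 for Msh6 and Trp53bp1, and wild-type cells with IL-4 for Xrcc4. The lowest mean lay in wild-type cells with IL-4 for Apex1, Lig4 and Prkdc, in knockout cells with IL-4 for Apex2 and Xrcc4, in knockout controls for Ung and Trp53bp1, and in wild-type controls for Msh6. The span between the highest and lowest group mean was 0.74 for Lig4, 0.64 for Prkdc, 0.50 for Apex1, 0.49 for Apex2, 0.33 for Msh6, 0.21 for Trp53bp1, 0.20 for Ung and 0.19 for Xrcc4. Among all genes tested, the span of Lig4 stood at percentile 72.6 and that of Xrcc4 at percentile 10.1.

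Related genes of the same steps were followed on lists chosen by function. Their counts stand beside shares over all genes of 27.5% higher and 14.7% lower in the knockout response (median 0.05), 26.4% and 30.8% in the wild-type response (median -0.04), and 28.3% and 16.4% in the difference between responses. In base excision repair, 10 of 14 genes rose with IL-4 in knockout cells and none fell (median 0.27), while 6 rose and 1 fell in wild-type cells (median 0.10). In wild-type cells the DNA glycosylase genes Neil1 and Tdg rose by 0.75 and 0.45. Parp1, a sensor of strand breaks, fell by 0.54. The response was more positive in knockout cells for 4 of the 14 genes and more negative for 3. Neil1 was among those 3 (-0.87, adjusted p = 4.11e-05). In mismatch repair, 10 of 12 genes rose and none fell in knockout cells (median 0.26), while none rose and 6 fell in wild-type cells (median -0.13). The responses differed for 10 of the 12, among them Rfc2 and Rfc4 of the clamp loader (0.91, adjusted p = 2.73e-05, and 0.53, adjusted p = 0.0011) and the exonuclease gene Exo1 (0.78, adjusted p = 7.41e-04).

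Among 9 further genes of end joining, 4 rose and 1 fell in knockout cells, while 4 rose and 4 fell in wild-type cells, where 27.5% and 14.7% of all genes were called in knockout cells and 26.4% and 30.8% in wild-type cells. Xrcc5, the Ku80 subunit that holds DNA ends with Ku70, averaged 2.39 in knockout cells with IL-4 and 2.36 in knockout controls, and 1.31 in wild-type cells with IL-4 and 2.73 in wild-type controls. It fell by 1.42 in wild-type cells (2.68-fold lower, adjusted p = 9.75e-08). Dclre1c, the nuclease Artemis, rose by 0.79 (adjusted p = 3.32e-07) in the same cells. Of the 9 genes, 4 had a more positive response in knockout cells and 1, Dclre1c, a more negative one (-0.66, adjusted p = 4.37e-05). Over all genes these shares were 28.3% and 16.4%. Polq, a polymerase of alternative end joining, and Rbbp8, which starts end resection, rose by 0.86 and 0.60 in wild-type cells and were 0.81 and 0.74 higher with IL-4 in knockout cells. Of the break response genes, 12 of 13 rose and none fell in knockout cells (median 0.34), and 6 rose and 2 fell in wild-type cells (median 0.17). The responses differed between genotypes for 6 of the 13, more positive in knockout cells for 5 and more negative for 1, with values from -0.53 to 1.23 over the list. Among the 5 was Rad50, which takes part in break sensing (0.51, adjusted p = 2.44e-04). Of the genes for transcription through switch regions and targeting to them, 8 of 11 were tested, of which 3 rose in knockout cells and 1 rose and 2 fell in wild-type cells, beside the same shares over all genes. Of those 8, 3 had a more positive response in knockout cells and none a more negative one.

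Under the slide block, 6 of 14 base excision, 8 of 12 mismatch repair, 3 of 9 end joining and 10 of 13 break response genes rose in knockout cells, and none of these lists had a gene that fell, where 21.5% of all genes were called higher and 11.8% lower. For knockout cells, 6 base excision, 6 mismatch repair, 3 end joining and 9 break response genes rose with the deposited values of the authors. Of these lists only end joining had genes that fell there, 2 of 9. Over all genes, 21.5% were called higher and 17.4% lower with those values. The medians of these lists kept their sign in both IL-4 responses under quantile scaling, median scaling, normexp, the deposited table and the slide block. With the deposited table, however, the end joining median in knockout cells was only 0.0032, below the median of 0.0142 over all genes.

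**Figure D4:**
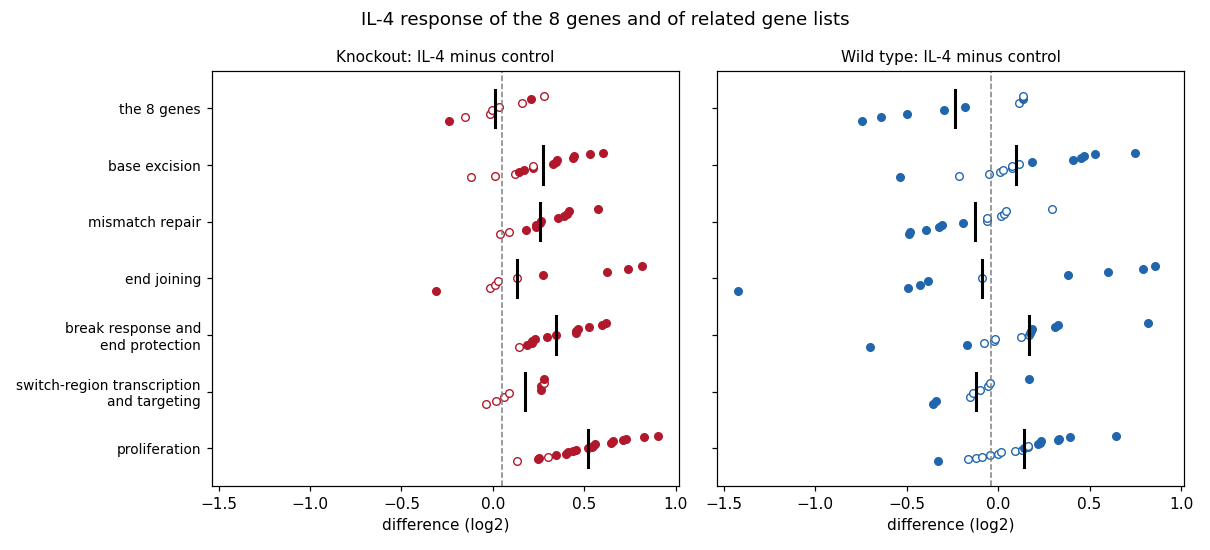
Log2 change with IL-4 in knockout cells (left) and wild-type cells (right) of the 8 genes and of 6 lists of related genes; each point is a gene, filled at an adjusted p under 0.05, the thick bar is the median of the list and the dashed line the median of all genes tested. In mismatch repair the median is 0.26 in knockout cells and -0.13 in wild-type cells; Xrcc5 at -1.42 is the leftmost point of the wild-type panel.

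Proliferation genes moved in the same comparisons. Of 19 tested, 17 rose and none fell with IL-4 in knockout cells (median 0.52), and 8 rose and 1 fell in wild-type cells (median 0.14). Over all genes, 27.5% were called higher and 14.7% lower in knockout cells, and 26.4% and 30.8% in wild-type cells. For 12 of the 19 the response was more positive in knockout cells, and for none more negative, where 28.3% and 16.4% of all genes were so called. Under the slide block the list median in knockout cells was 0.57, beside 0.06 over all genes. Median scaling left 4 of the 19 higher and 1 lower in wild-type cells, where 23.3% of all genes were called higher and 22.9% lower. The mean log2 level of the list was 3.80 to 4.03 on the knockout IL-4 arrays and 3.39 to 3.49 on the knockout controls, and 3.61 to 3.67 on the wild-type IL-4 arrays and 3.46 to 3.56 on the wild-type controls. Summed levels of the 4 macrophage markers, in multiples of the 75th percentile of the array, were 34.8 to 36.8 in knockout cells with IL-4 and 29.5 to 31.9 in knockout controls, and 17.1 to 17.9 in wild-type cells with IL-4 and 29.3 to 31.0 in wild-type controls. 3 of those 4 markers were well above background on all arrays, and in knockout cells they did not move alike. Emr1 averaged 4.91 (log2 level) in knockout cells with IL-4 and 4.37 in knockout controls, while Cd68 averaged 2.32 and 3.24 and Csf1r -0.79 and -0.54 in the same groups. In wild-type cells all 3 averaged lower with IL-4. Emr1 averaged 3.58 against 4.50 in wild-type controls, Cd68 2.30 against 2.75, and Csf1r -0.60 against -0.48. For the 3 plasma cell markers, all well above background on all arrays, the sums were 49.5 to 51.9 in knockout cells with IL-4 and 88.7 to 105 in knockout controls, and 180 to 185 in wild-type cells with IL-4 and 101 to 106 in wild-type controls. Within that sum, Xbp1 averaged 7.50 (log2 level) in wild-type cells with IL-4 and 6.63 in wild-type controls, while Prdm1 averaged -0.85 and 1.96 in the same groups. The part of either in the values of the 8 genes was not tested, and in such bulk samples fewer cells of a type and less RNA per cell cannot be told apart.

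For each gene, the others with the most similar course over the 12 arrays were found by the root mean square distance of centred log2 values among 11199 candidates. They were Bri3bp and Blnk for Prkdc (both at 0.05), Nmi and Tmem41a for Lig4 (0.06 and 0.07), and Coq4 and Nup35 for Apex1 (both at 0.05). The SD of the 3 genes themselves over the arrays was 0.29, 0.31 and 0.25. For Ung they were Madd and Zcchc9 (both at 0.02), and the probes that stand for both are among the 10 with the GT repeat.

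Promoter windows from RefSeq (GRCm38.p6), from 250 bases before to 50 after a start site, were found for 6 of the 8 genes, with 2 windows for Lig4. STAT proteins bind TTC and GAA separated by 3 or 4 bases, and STAT6 is known for the wider spacing. No window of the 6 held TTCNNNGAA or its form with 4 bases between, on either strand. These occur in 8.30% and 6.95% of 32851 promoters of the same length. GGGCGG, the core bound by SP factors, occurred in at least 1 window of each of the 6 and in 35.7% of all promoters. It consists of G and C alone, and the windows of the 6 held 57.3 to 71.7% GC, against a median of 52.7% over all promoters. The part of GC content in these matches was not tested. CCAAT, bound by NF-Y, occurred 2 times in the window of Apex1 and once in that of Msh6, and in 37.4% of all promoters. Of TTTGGCGC and TTTCCCGC, bound by E2F and present in 0.514% and 1.07% of promoters, the second occurred once, in the window of Msh6. The windows of the 2 genes with the largest wild-type decrease that have one are shown, at chr14:50924699-50924998 on the plus strand for Apex1 and chr8:9976262-9976561 on the minus strand for the Lig4 window with GGGCGG. Capitals mark GGGCGG or its complement and CCAAT.
Apex1 promoter: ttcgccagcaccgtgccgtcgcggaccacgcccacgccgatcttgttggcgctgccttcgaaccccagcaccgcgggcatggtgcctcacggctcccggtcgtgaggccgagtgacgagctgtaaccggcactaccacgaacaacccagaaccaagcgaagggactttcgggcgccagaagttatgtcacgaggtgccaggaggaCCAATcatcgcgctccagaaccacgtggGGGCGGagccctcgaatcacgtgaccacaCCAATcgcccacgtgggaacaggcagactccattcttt
Lig4 promoter: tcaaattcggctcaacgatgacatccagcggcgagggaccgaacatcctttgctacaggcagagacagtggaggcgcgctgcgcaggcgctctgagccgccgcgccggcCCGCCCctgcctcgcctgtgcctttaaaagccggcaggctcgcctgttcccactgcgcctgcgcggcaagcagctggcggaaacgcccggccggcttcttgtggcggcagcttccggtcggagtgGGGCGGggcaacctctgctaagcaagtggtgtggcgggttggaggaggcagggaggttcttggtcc
A match is a stretch of letters and not a bound site, and its absence from these windows says nothing of sites elsewhere.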

How the data were processed

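The data are Cy3 signals of 12 arrays, 3 for each of 4 groups taken from the labels. Agilent Feature Extraction 10.7.3.1 produced the deposited scanner files, whose processed intensity is, per the file headers, corrected for background and for spatial trends on its own array. A surrogate replaces a signal not above background, and arrays are not scaled to each other. The authors also deposited a gene-level table of log2 values, background subtracted and quantile normalised per the file headers, used as an alternative. Probe positions and sequences are those of the files (mm9), where the exon or UTR of a probe is not given. The accessions of all 8 genes matched RefSeq.

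The main values are log2 of the processed intensity minus the 75th percentile of the array (296 to 356 in intensity). Outlier flags (122 to 196 spots per array, 2 of the 216 readings of the 8 genes) were left out, and no spot was saturated. Spots of a probe were averaged. A probe was kept if all 3 arrays of some group read it well above background and each group had at least 2 values, and the brightest kept probe stood for its gene. The model of group means used limma 3.58.1 (R 4.3.3, data.table version 1.17.8, jsonlite 2.0.0) over all 12 arrays, with Benjamini-Hochberg adjustment over 16497 genes in each of 5 comparisons. The code was tested on simulated data. Python 3.11.15 with pandas 2.3.3 read the sequences, and matplotlib 3.10.9 drew the figures. The number of arrays limits the precision.

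The 8 genes and the gene lists were chosen with earlier results of these data known. All 8 were named whatever their values. From each list up to 4 genes were named, by the smallest adjusted p in the wild-type response or in the difference between responses. Some genes named by that rule are left out here. Replicate numbers were not taken as pairs, and no block was used in the main model. Deviations of arrays with the same number correlated at -0.24 to 0.39 (median -0.03 over 18 pairs). Arrays with different numbers gave -0.47 to 0.31. Knockout control with knockout IL-4 gave 0.32 for number 1 and 0.39 for number 3, but -0.02 for number 2. A pairing within the knockout groups therefore remains possible. 23 alternatives changed the scaling, background correction, filter, probe rule, arrays fitted, variance model, slide or replicate block or the source of the values, or left out 1 array. They are not independent of each other. Leaving out an array outside a comparison, or adding the replicate block, kept its estimate and changed only the error and the adjusted p. For comparisons within slide 1, the slide block is the same test as leaving out knockout control 3.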

Additional observations from a re-analysis of the deposited data

Results flagged for a closer look

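The IL-4 response of 4 of the 8 genes differed between the genotypes in the test of the difference itself, knockout response minus wild-type response on the log2 scale by limma. The difference was 0.78 for Apex1 (adjusted p = 0.0029), 0.63 for Prkdc (adjusted p = 3.34e-04), 0.59 for Lig4 (adjusted p = 0.0097) and 0.34 for Ung (adjusted p = 0.0075). The wild-type change was downward in all 4. Of the knockout changes, those of Apex1 and Ung were above 0 and those of Prkdc and Lig4 below it, and none was called. The Ung value is that of a probe with a long GT repeat, and 10 other probes with such a repeat gave differences of 0.14 to 0.40 (median 0.30).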

How the results depend on the processing

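The difference between responses of Apex1, Prkdc, Lig4 and Ung, the wild-type decrease of Prkdc, Lig4 and Apex1, and the knockout excess of Prkdc and Apex1 with IL-4 were called under every alternative computed. For that knockout excess, genotype and slide coincide, and the slide block adjusts it by knockout control 3 alone. In the difference between responses, the slide block likewise sets the knockout IL-4 arrays against knockout control 3 alone. That array was the lowest knockout control for Apex1, Prkdc, Lig4 and Ung. The number of the 8 genes called in the knockout response was 2, and became 1 with quantile scaling, with the mean of kept probes, with the deposited table and with the replicate block, 0 with no filter and with only the compared arrays, 3 with median scaling, the stricter filter or the slide block, and 4 with normexp and with a robust variance trend. For knockout against wild type without IL-4 it was 2, and became 1 with quantile scaling and with the replicate block, 0 with no filter, only the compared arrays and the slide block, 3 with normexp, the robust trend and the stricter filter, and 4 with median scaling. With IL-4 it was 4, and became 2 with median scaling and with no filter. Other settings changed calls there too, among them the slide block, under which the Msh6 excess was 0.07 and no longer called. Shares of all genes called higher and lower moved too. In the knockout response they were 27.5% and 14.7% in the main model, 35.8% and 7.76% with median scaling, and 9.20% and 5.26% with no filter. In that order they were 4.73% and 6.96%, 2.82% and 30.9%, and 0.306% and 0.476% between genotypes without IL-4. Between genotypes with IL-4 they were 29.8% and 21.3%, 18.4% and 19.4%, and 11.6% and 8.61%. Leaving out 1 array gave 0 to 4 calls among the 8 genes in the knockout response and 4 to 6 in the wild-type response (6 in the main model). It gave 0 to 4 without IL-4, 3 to 5 with IL-4 and 4 in the difference. The Trp53bp1 knockout response was -0.0132 with the mean of both probes and 0.21 in the main model; the 2 probes differ in sign there. The cause of the other changes was not tested. Median scaling moved the median of all genes to 0.20 in the knockout response, 0.23 in the difference and -0.22 between genotypes without IL-4. The share of calls that were higher was 82.2% under it against 65.1% in the main model in the knockout response, 73.5% against 63.3% in the difference, and 8.37% against 40.4% without IL-4. The replicate block, which treats arrays of the same number as paired, left 5 of the 8 genes called in the wild-type response.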
